A study of Homo sapiens with 11 samples.

Results

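The BCL2 family decides in the outer membrane of the mitochondrion whether a cell survives or undergoes apoptosis, and 10 of its genes were examined in T-cell acute lymphoblastic leukemia (T-ALL) cell lines. The 10 genes are the survival genes BCL2, BCL2L1 (BCL-XL), BCL2L2 (BCL-W), MCL1 and BCL2A1 (BFL1), the effectors BAX and BAK1, and the BH3-only genes BCL2L11 (BIM), BMF and PMAIP1 (NOXA). They were chosen by name from the 19775 genes for which the HG U133 Plus 2.0 array holds a probe set with a single gene symbol, and they carry 30 of the 54613 probe sets analysed. The probe set that was brightest on average over the 11 lines stood for its gene, and all 10 genes were measured.

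Total RNA of 11 established T-ALL cell lines was hybridized, 1 array per line. Per the labels, 6 lines are NKL-positive, which means that they express homeobox genes of the NKL subclass, and these are LOUCY, PEER, ALL-SIL, HPB-ALL, CCRF-CEM and JURKAT. The 5 NKL-negative lines are SUP-T1, CML-T1 and the lines MOLT-4, MOLT-14 and MOLT-16. No treatment is given for any line. Each line stems from the leukemia of a single patient and the NKL-positive lines do not share the same homeobox gene, so that the groups differ in more than NKL activity. The study compared 5 NKL-positive lines with the 5 NKL-negative lines and left JURKAT out, which was followed here, and JURKAT is given beside the comparison. Each value of a line comes from a single array and has no error of its own, and the SDs are those between lines.

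The values were RMA log2 values, in which a difference of 1 stands for a doubling of signal. Because probe sets of different genes bind with different strength, levels were compared between lines for the same gene, and genes were compared only by how far each line lay from the median of that gene over the 11 lines. Array medians lay between 4.63 and 4.78 and lower quartiles between 3.45 and 3.60, and values at or below the lower quartile have no order among them. Of the T-cell markers, 8 of 9 measured genes, among them CD3D, CD3E and LCK, were above the array median in every line. CD2 was above it in 7 lines, with 4.13 in CML-T1. Of the 6 myeloid markers, CD14, MPO and ELANE were below it in every line. ITGAM was above it in 4 lines with up to 7.08 in CML-T1, CSF1R in 4 with up to 5.38 and LYZ in 2 with up to 5.48. Of the 5 measured B-cell markers, CD79A was above it in every line with 5.77 to 10.12. PAX5 was above it in 7 lines, CD79B in 6, MS4A1 in 2 and BLK in 1. Of the 4 measured erythroid and megakaryocyte markers, ITGA2B was above it in 8 lines, HBB in 7, PF4 in 3 and KLF1 in 0. Of the 4 measured NK-cell markers, NCR1 was above it in 6 lines, NCAM1 in 5, KLRD1 in 1 and KLRF1 in 0. Poly-A spike-in controls are bacterial RNAs put into a sample at the start of labelling. Their mean reached 5.65 to 8.76 in 8 lines but 2.99 to 3.12 in CML-T1, HPB-ALL and MOLT-16, which are called the lines without poly-A signal. The 3' to 5' difference of the ACTB control probe sets, which grows as RNA is degraded, had means of 0.51 ± 0.28 in NKL-positive lines against 0.88 ± 0.28 in NKL-negative lines (SD, n = 5 each) with p = 0.0873 in a two-sided exact permutation test. The control probe sets for ribosomal RNA averaged 7.98 ± 1.90 in NKL-positive lines against 10.23 ± 1.41 in NKL-negative lines (SD, n = 5 each, p = 0.0794 in the same exact permutation test). The part of these technical differences in the results below was not tested beyond the values given.

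As background, survival proteins of this family hold the effectors BAX and BAK1 in check by binding them, and BH3-only proteins bind the survival proteins and so release or activate the effectors, which then open the mitochondrial membrane and let cytochrome c reach the caspases. NOXA binds MCL1 and BFL1, whereas BIM binds all survival proteins. In the thymus, BIM is required for the removal of self-reactive cells, and expression of BCL2 changes with the stage of thymocyte development.

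BCL2A1, which had a clear signal in few lines, and BCL2, which was high in CML-T1 and LOUCY, have start regions of different make-up. They are shown from 250 bases before to 50 bases after the RefSeq gene start (GRCh38.p14), with every CG dinucleotide and the motif TATAAA (read on both strands) in capitals. The BCL2A1 window is chr15:79971147-79971446 and the BCL2 window is chr18:63319720-63320019, each on the minus strand.
BCL2A1: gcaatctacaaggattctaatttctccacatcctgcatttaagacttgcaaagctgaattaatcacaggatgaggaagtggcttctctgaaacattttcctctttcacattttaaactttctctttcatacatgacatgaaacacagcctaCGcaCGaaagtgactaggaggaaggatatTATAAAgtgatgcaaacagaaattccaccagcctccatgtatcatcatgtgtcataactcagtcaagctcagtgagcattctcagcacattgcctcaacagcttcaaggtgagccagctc
BCL2: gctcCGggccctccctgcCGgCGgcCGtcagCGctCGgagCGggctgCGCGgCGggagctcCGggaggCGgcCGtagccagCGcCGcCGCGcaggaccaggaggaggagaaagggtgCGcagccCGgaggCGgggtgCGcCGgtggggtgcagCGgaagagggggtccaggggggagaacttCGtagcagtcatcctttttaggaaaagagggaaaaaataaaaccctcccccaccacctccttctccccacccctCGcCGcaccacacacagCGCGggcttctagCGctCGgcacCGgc
The BCL2A1 window held 2 CG dinucleotides, and 89.0% of the 35116 windows of this length in the RefSeq table hold at least as many. It contained TATAAA with its first base 70 bases before the start, a motif which 11.5% of all windows hold on either strand. The BCL2 window held 31 CG dinucleotides, a number that 20.7% of the windows reach, and no TATAAA. The motif was also found in 1 of the 2 BCL2L1 windows and in no window of the other members examined. Windows of 8 members were found, and BCL2L1 and BMF have 2 windows each. CG counts were 42 for PMAIP1, 39 for BCL2L11, 38 for BAX, 31 and 1 for BMF, 20 and 16 for BCL2L1 and 7 for BAK1. The motif GGGCGG, read on both strands and held by 45.0% of the windows, was absent from the BCL2 and BCL2A1 windows and occurred 4 times in that of PMAIP1. These counts describe the letters of the windows and not the activity of a factor.

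BCL2, the founding survival gene of the family, varied by 4.93 log2 units between the lines, a range that 5.30% of all genes reach. It was measured at 8.63 in ALL-SIL, 6.09 in CCRF-CEM, 7.93 in HPB-ALL, 6.29 in JURKAT, 10.25 in LOUCY and 7.15 in PEER, against 10.85 in CML-T1, 6.62 in MOLT-4, 5.92 in MOLT-14, 8.86 in MOLT-16 and 6.69 in SUP-T1. High values thus occurred in lines of each group, with CML-T1 and LOUCY at the top and MOLT-14, CCRF-CEM and JURKAT at the bottom, and the groups overlapped. LOUCY is known as a line with features of early T-cell precursors. BCL2 averaged 8.01 ± 1.57 in NKL-positive lines against 7.79 ± 2.04 in NKL-negative lines (SD, n = 5 each), a difference of 0.22 (SE 1.01, adjusted p = 0.995 from limma), which was 0.99 without CML-T1 and −0.34 without LOUCY. In bulk RNA, fewer cells with a transcript and less of it per cell cannot be told apart. All 3 lines without poly-A signal were above the median of 7.15. The difference between the groups was 1.62 among the 7 compared lines with poly-A signal and −1.93 among the 3 without it, which are 1 NKL-positive and 2 NKL-negative lines.

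BCL2L1 encodes BCL-XL, a survival protein that serves thymocytes at the double positive stage. It reached 9.11 in ALL-SIL, 8.26 in CCRF-CEM, 7.67 in HPB-ALL, 9.28 in JURKAT, 8.01 in LOUCY and 8.85 in PEER, against 9.13 in CML-T1, 8.32 in MOLT-4, 7.79 in MOLT-14, 7.36 in MOLT-16 and 8.45 in SUP-T1. All lines lay within 1.92 log2 units, with JURKAT, CML-T1 and ALL-SIL highest and MOLT-16 and HPB-ALL lowest. The group means were 8.38 ± 0.59 in NKL-positive lines against 8.21 ± 0.67 in NKL-negative lines (SD, n = 5 each), which differed by 0.17 (SE 0.38, adjusted p = 0.991 from limma).

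MCL1, a short-lived survival protein needed by lymphocytes at many stages, was the most even member at its brightest probe set. Its values were 10.14 in ALL-SIL, 9.94 in CCRF-CEM, 10.35 in HPB-ALL, 10 in JURKAT, 9.86 in LOUCY and 9.70 in PEER, against 10.20 in CML-T1, 9.90 in MOLT-4, 10.01 in MOLT-14, 9.69 in MOLT-16 and 10.12 in SUP-T1. The range of 0.66 is reached or passed by 95.5% of all genes. The NKL-positive lines averaged 10 ± 0.25 and the NKL-negative lines 9.98 ± 0.20 (SD, n = 5 each), a difference of 0.01 (SE 0.19, adjusted p = 0.999 from limma).

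BCL2L2, which encodes the survival protein BCL-W, had the largest mean difference of the 10 genes. It was measured at 6.61 in ALL-SIL, 6.27 in CCRF-CEM, 5.28 in HPB-ALL, 7.12 in LOUCY and 7.01 in PEER, against 3.26 in CML-T1, 4.04 in MOLT-4, 8.16 in MOLT-14, 3.82 in MOLT-16 and 4.28 in SUP-T1. The 5 compared NKL-positive lines were above 4 of the 5 NKL-negative lines, while MOLT-14 was the highest of all lines. JURKAT is NKL-positive but was at 3.92, within the range of the NKL-negative lines. The means were 6.46 ± 0.74 in NKL-positive lines against 4.71 ± 1.96 in NKL-negative lines (SD, n = 5 each), and the difference of 1.75 (SE 0.83) did not pass the test (adjusted p = 0.981 from limma). Without MOLT-14 the difference was 2.61 (adjusted p = 0.238 from limma), and with JURKAT it was 1.32 (adjusted p = 0.962 from limma). It was 1.26 among the lines with poly-A signal and 1.74 among the 3 without it. In 5 lines, CML-T1, MOLT-4, MOLT-16, SUP-T1 and JURKAT, the value lay under the array median. The second BCL2L2 probe set lay under the array median in 10 of the 11 lines and had a Pearson r of 0.60 with the brightest one. Its difference was 0.35 (SE 0.30, adjusted p = 0.981 from limma). There ALL-SIL was highest with 4.73, MOLT-14 was at 4.28, and HPB-ALL at 3.59 was below MOLT-4 at 4.12 and SUP-T1 at 3.97.

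BCL2A1, a survival gene known as a target of NF-kappaB, was near background in most lines. Its values were 3.85 in ALL-SIL, 5.61 in CCRF-CEM, 2.96 in HPB-ALL, 3.06 in JURKAT, 4.88 in LOUCY and 3.92 in PEER, against 2.92 in CML-T1, 2.72 in MOLT-4, 2.78 in MOLT-14, 8.11 in MOLT-16 and 2.97 in SUP-T1. The range was 5.39, or 4.66 when values below the lower quartile were set to it, against 4.93 for BCL2, which had no such values. MOLT-16 was the line with a clear signal, followed by CCRF-CEM and LOUCY, while 8 lines were below the median and 6 below the lower quartile of their arrays. The NKL-positive lines averaged 4.24 ± 1.02 and the NKL-negative lines 3.90 ± 2.36 (SD, n = 5 each), a difference of 0.34 (SE 1.01, adjusted p = 0.993 from limma). Without MOLT-16 the difference was 1.40 (adjusted p = 0.865 from limma), and with values below the lower quartile set to that quartile it was −0.11. Among the lines with poly-A signal the difference was 1.74, and among the 3 without it, which include MOLT-16, it was −2.55.

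**Figure D1:**
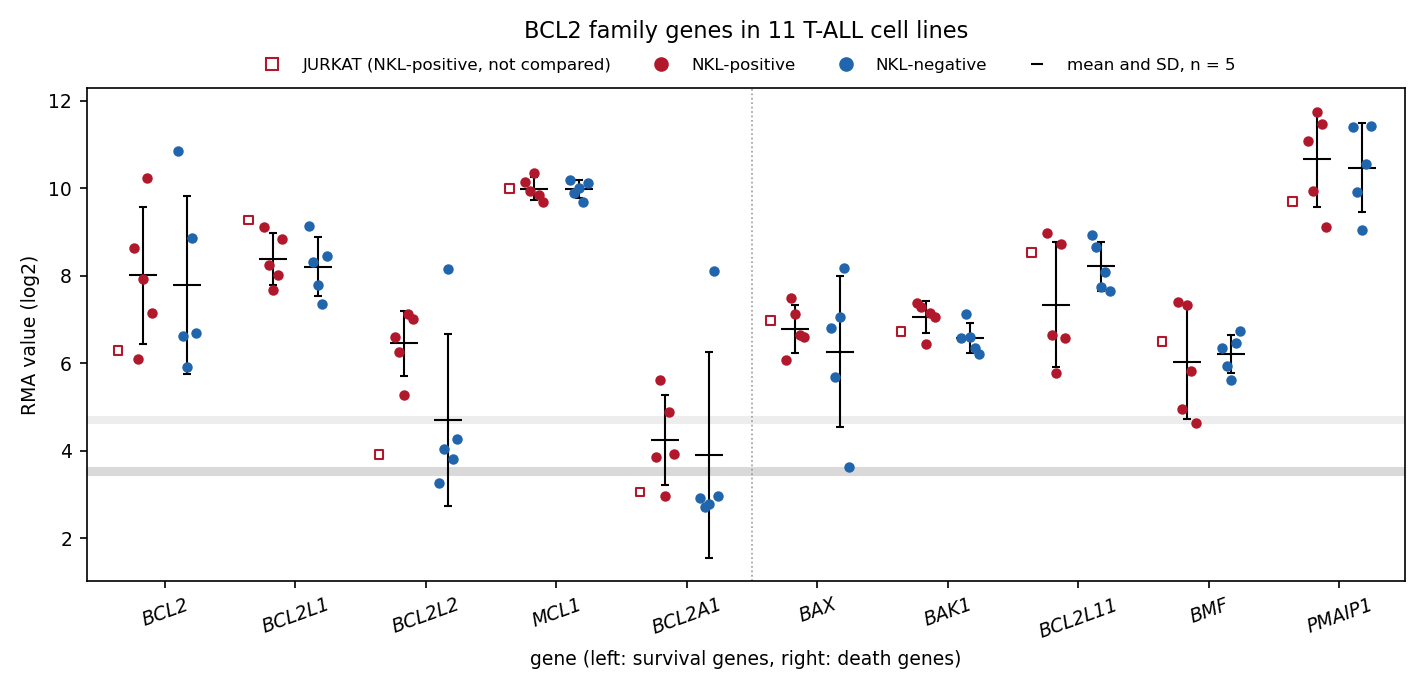
RMA log2 values (y-axis) of the 10 genes (x-axis), with the light grey band for the array medians and the dark grey band for their lower quartiles, where red dots stand for the 5 compared NKL-positive lines, blue dots for the 5 NKL-negative lines and open squares for JURKAT, and bars give the mean and SD of each group of 5. The 5 compared NKL-positive lines lie between 5.28 and 7.12 for BCL2L2, where JURKAT lies at 3.92, and MOLT-16 lies at 8.11 for BCL2A1.

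Of the effectors, BAX, whose product moves to the mitochondria upon a death signal, was measured at 6.08 in ALL-SIL, 7.50 in CCRF-CEM, 7.14 in HPB-ALL, 6.98 in JURKAT, 6.64 in LOUCY and 6.60 in PEER, against 6.82 in CML-T1, 5.68 in MOLT-4, 7.06 in MOLT-14, 8.17 in MOLT-16 and 3.62 in SUP-T1. SUP-T1 was set apart from all other lines at the low end, and was also the lowest line with 4.15 at the second probe set of BAX. The NKL-positive lines averaged 6.79 ± 0.55 and the NKL-negative lines 6.27 ± 1.73 (SD, n = 5 each), a difference of 0.52 (SE 0.72, adjusted p = 0.983 from limma) which became −0.14 without SUP-T1. It was 1.25 among the lines with poly-A signal and −0.36 among the 3 without it. BAK1, the effector that resides in the mitochondrial membrane, was at 7.37 in ALL-SIL, 7.30 in CCRF-CEM, 6.45 in HPB-ALL, 6.73 in JURKAT, 7.15 in LOUCY and 7.07 in PEER, against 6.58 in CML-T1, 7.14 in MOLT-4, 6.60 in MOLT-14, 6.35 in MOLT-16 and 6.22 in SUP-T1. All values of BAK1 lay within 1.15 log2 units. The groups overlapped, with 6.45 to 7.37 in the 5 compared NKL-positive lines and 6.22 to 7.14 in the NKL-negative lines. Its means were 7.07 ± 0.37 in NKL-positive lines against 6.58 ± 0.35 in NKL-negative lines (SD, n = 5 each), and the difference of 0.49 (SE 0.24) did not pass the test (adjusted p = 0.981 from limma). Among the lines with poly-A signal BAK1 differed by 0.57, and among the 3 without it by −0.01.

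Of the BH3-only genes, BCL2L11 encodes BIM, which couples strong T-cell receptor signals and withdrawal of cytokines to death. It was measured at 8.98 in ALL-SIL, 6.65 in CCRF-CEM, 5.78 in HPB-ALL, 8.53 in JURKAT, 8.73 in LOUCY and 6.57 in PEER, against 8.94 in CML-T1, 8.65 in MOLT-4, 7.75 in MOLT-14, 8.09 in MOLT-16 and 7.66 in SUP-T1. CCRF-CEM, PEER and HPB-ALL lay below all NKL-negative lines, while LOUCY and JURKAT lay within and ALL-SIL just above their range. The means were 7.34 ± 1.43 in NKL-positive lines against 8.22 ± 0.56 in NKL-negative lines (SD, n = 5 each), a difference of −0.88 (SE 0.61, adjusted p = 0.981 from limma). The difference was −0.29 among the lines with poly-A signal and −2.74 among the 3 without it, of which HPB-ALL is the single NKL-positive line.

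BMF, a BH3-only gene linked to loss of attachment and to glucocorticoids, was at 7.41 in ALL-SIL, 4.96 in CCRF-CEM, 7.34 in HPB-ALL, 6.50 in JURKAT, 5.83 in LOUCY and 4.63 in PEER, against 6.34 in CML-T1, 5.94 in MOLT-4, 5.63 in MOLT-14, 6.47 in MOLT-16 and 6.73 in SUP-T1. The NKL-positive lines held both the highest and the lowest values, with a mean of 6.03 ± 1.30 against 6.22 ± 0.44 for NKL-negative lines (SD, n = 5 each, difference −0.19, SE 0.55, adjusted p = 0.993 from limma). PMAIP1 encodes NOXA and reached 11.08 in ALL-SIL, 9.94 in CCRF-CEM, 11.74 in HPB-ALL, 9.70 in JURKAT, 11.48 in LOUCY and 9.12 in PEER, against 11.41 in CML-T1, 9.91 in MOLT-4, 9.06 in MOLT-14, 10.55 in MOLT-16 and 11.43 in SUP-T1. It was above the array median in every line, and its range of 2.68 was shared by the groups. The means were 10.67 ± 1.11 in NKL-positive lines against 10.47 ± 1.01 in NKL-negative lines (SD, n = 5 each), a difference of 0.20 (SE 0.60, adjusted p = 0.993 from limma). PEER lay below the median of each of these 3 BH3-only genes, by −1.52 for BCL2L11, −1.71 for BMF and −1.43 for PMAIP1, and CCRF-CEM did so by −1.44, −1.38 and −0.61. MOLT-14 was likewise below the median of all 3, by −0.34, −0.71 and −1.49. Further BH3-only genes did not share this. BIK was above its median of 7.69 in PEER with 9.70 and in CCRF-CEM with 8.42. BNIP3 was above its median of 9.30 in CCRF-CEM with 11.76 and MOLT-14 with 10.25, but below it in PEER with 3.08.

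In the comparison of the groups, 0 of the 10 genes passed the test of limma at an adjusted p under 0.05, where 0.0152% of all genes did (3 of 19775) and 0.00916% of the 54613 probe sets did. At an unadjusted p under 0.05 limma likewise gave 0 of the 10 genes, against 5.26% of all genes, and 1 of their 30 probe sets, against 4.9% of all probe sets. The groups of 5 lines were apart for 0 of the 10 genes and for 0.905% of all genes. In 8 of the 10 genes the mean was higher in the NKL-positive lines and in BCL2L11 and BMF it was lower, while 49.8% of all genes were higher, and the median difference was 0.21 for the 10 genes and 0 for all genes. The direction held for BCL2L2, BAK1 and BCL2L11 in all 20 alternatives of lines, normalization, filter and model, and turned in at least 1 of them for the other genes. Not all of these alternatives could turn a direction. The trend of variance with intensity and the filter on probe sets above the median leave the difference of a gene unchanged. The floor at the lower quartile does so for BAK1 and BCL2L11, and averaging over probe sets for BAK1, which has a single probe set. Median centring shifts all genes of an array alike and gave 1.77 for BCL2L2, 0.51 for BAK1 and −0.85 for BCL2L11. No alternative read a gene from another single probe set. Of the 7 BCL2L11 probe sets, 3 were higher and 4 lower in the NKL-positive lines. The size of the difference was less stable, with 1.05 for BCL2L2 and −0.19 for BCL2L11 when a gene was averaged over its probe sets, and −0.49 for BCL2L11 without HPB-ALL. For BCL2L1, MCL1, BMF and PMAIP1 the differences among the lines with poly-A signal were 0.37, −0.10, −0.39 and 0.27, and among the 3 lines without it they were −0.58, 0.40, 0.94 and 0.76.

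A gene was taken to stand out in a line if it exceeded the median of the remaining 10 lines by 2 log2 units or more and was above the array median, or if it was lower than that median by 2 or more and the median itself was above the array median. Of 110 values, 10 genes in 11 lines, 7 stood out high, where 1.88% of the values of all genes did, and 3 stood out low, where 1.58% did. The high values were those of BCL2 in CML-T1 and LOUCY, BCL2L2 in MOLT-14, LOUCY and PEER, and BCL2A1 in MOLT-16 and CCRF-CEM, and the low values were those of BCL2L2 in CML-T1, BAX in SUP-T1 and BCL2L11 in HPB-ALL. All 7 high values were thus of survival genes, and 3 of the 10 genes stood out high in at least 1 line, against 11.5% of all genes. Those just inside the limit were BCL2L2 in PEER with 7.01 and LOUCY with 7.12 against a median of 4.78, and just outside it were BCL2 in MOLT-16, at 8.86 against 6.92, and at the low side BCL2L2 in MOLT-16, at 3.82 against 5.78. Among the 8 lines with poly-A signal alone, 3 values stood out high, namely BCL2 in LOUCY and ALL-SIL and BCL2A1 in CCRF-CEM, and 4 stood out low, namely BAX in SUP-T1 and BCL2L2 in MOLT-4, SUP-T1 and JURKAT. Of the 10 genes, 7 had a range of at least 2 log2 units, against 36.3% of all genes. The shares over all genes include genes of every level and were not matched to the level of the 10 genes.

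**Figure D2:**
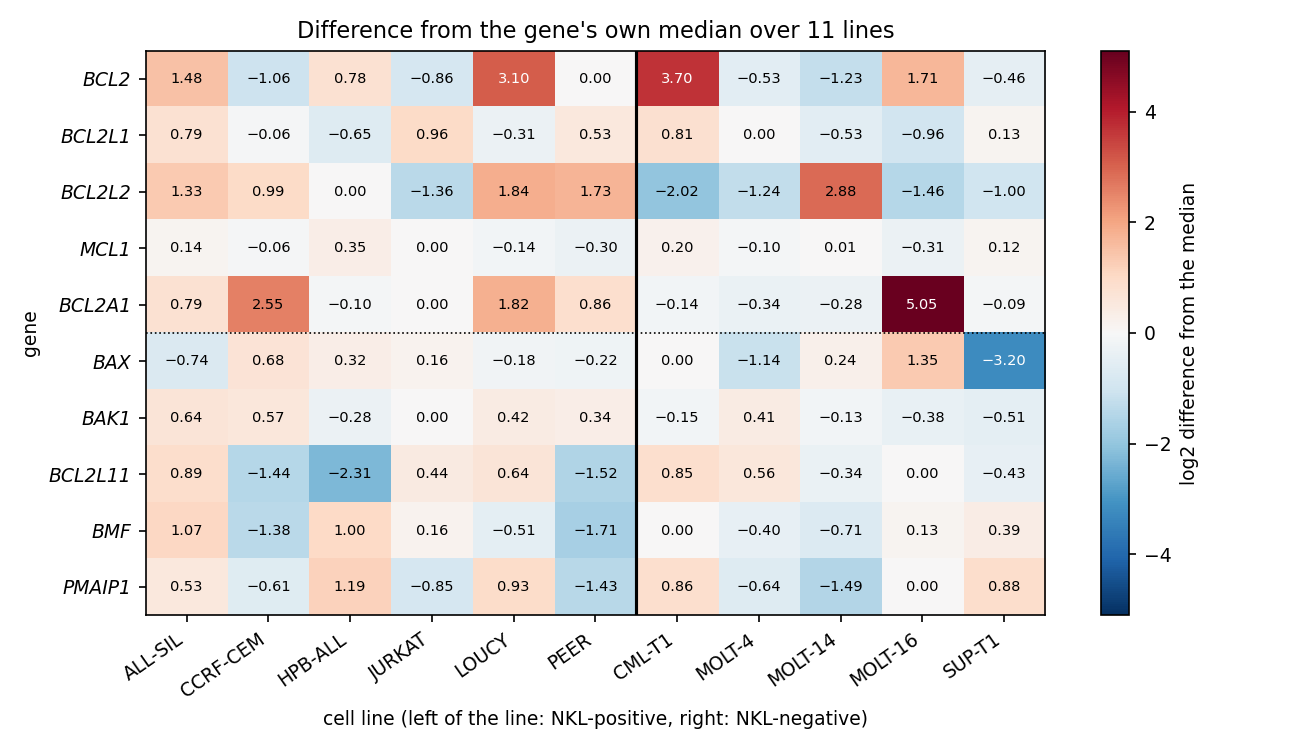
Difference of each gene (rows) from its own median over the 11 lines (columns, log2 units), survival genes above and death genes below the dotted line, NKL-positive lines left and NKL-negative lines right of the black line. BCL2 lies 3.70 above its median in CML-T1 and 3.10 in LOUCY, BCL2L2 2.88 above in MOLT-14, and BAX at −3.20 in SUP-T1, while the median of BCL2A1 is itself below the lower quartile, and its differences are taken against background.

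To describe the balance of survival genes in each line, the difference of a line from the median of BCL2L1 or MCL1 was subtracted from its difference from the median of BCL2. A balance above 0 therefore says that a line leaned to BCL2 more than the middle of the 11 lines did, and not that BCL2 was the more abundant transcript. BCL2 against BCL2L1 was 0.69 in ALL-SIL, −1.0 in CCRF-CEM, 1.43 in HPB-ALL, −1.82 in JURKAT, 3.41 in LOUCY and −0.53 in PEER, against 2.89 in CML-T1, −0.53 in MOLT-4, −0.70 in MOLT-14, 2.67 in MOLT-16 and −0.59 in SUP-T1. LOUCY, CML-T1, MOLT-16 and HPB-ALL leaned to BCL2 by more than 1, and JURKAT leaned to BCL2L1 most. BCL2 against MCL1 was 1.34 in ALL-SIL, −1.0 in CCRF-CEM, 0.43 in HPB-ALL, −0.86 in JURKAT, 3.24 in LOUCY and 0.30 in PEER, against 3.50 in CML-T1, −0.43 in MOLT-4, −1.24 in MOLT-14, 2.02 in MOLT-16 and −0.58 in SUP-T1. At these brightest probe sets, CML-T1, LOUCY, MOLT-16 and ALL-SIL were at the BCL2 end and MOLT-14 and CCRF-CEM at the other. BCL2L1 against MCL1 varied less, between −1.0 in HPB-ALL and 0.96 in JURKAT, with PEER at 0.83. The survival gene furthest above its own median was BCL2 in ALL-SIL, HPB-ALL, LOUCY and CML-T1, BCL2A1 in CCRF-CEM and MOLT-16, BCL2L2 in PEER and MOLT-14, and BCL2L1 in JURKAT and SUP-T1, while MOLT-4 was above the median of none of the 5. ALL-SIL was above the median of all 5 survival genes. The same genes led when values below the lower quartile were set to it, with BCL2A1 then 2.01 above its median in CCRF-CEM and 4.51 in MOLT-16.

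The balances overlapped between the groups. BCL2 against BCL2L1 averaged 0.80 ± 1.75 in NKL-positive lines against 0.75 ± 1.86 in NKL-negative lines, and BCL2 against MCL1 averaged 0.86 ± 1.57 in NKL-positive lines against 0.65 ± 2.02 in NKL-negative lines (SD, n = 5 each). BCL2L11, whose product binds and blocks BCL2, was set against BCL2 in the same manner. This balance was lowest with −3.09 in HPB-ALL, followed by CML-T1 with −2.85 and LOUCY with −2.46, and highest with 1.09 in MOLT-4 and 1.30 in JURKAT. It averaged −1.61 ± 1.17 in NKL-positive lines against −0.51 ± 1.71 in NKL-negative lines (SD, n = 5 each), and the balances were described without a test. All 3 lines without poly-A signal were above 0 for BCL2 against BCL2L1 and below 0 for BCL2L11 against BCL2. When BCL2 was read from its second probe set by mean, the balance against BCL2L1 kept its sign in 4 of the 11 lines, with CML-T1 at −1.92, MOLT-16 at −0.65 and LOUCY at 0.78. It kept its sign in 9 lines when BCL2L1 was read from its second probe set, and in 9 lines when each gene was averaged over its probe sets. BCL2 against MCL1 kept its sign in 3 lines with BCL2 read from its second probe set, and in 9 with MCL1 so read. With averages over probe sets it did so in 7 lines, and MOLT-14 was then at 0.70 and HPB-ALL lowest at −1.15. BCL2L1 against MCL1 kept its sign in 7 to 8 lines under these readings. BCL2L11 against BCL2 did so in 9 lines with averages over probe sets.

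**Figure D3:**
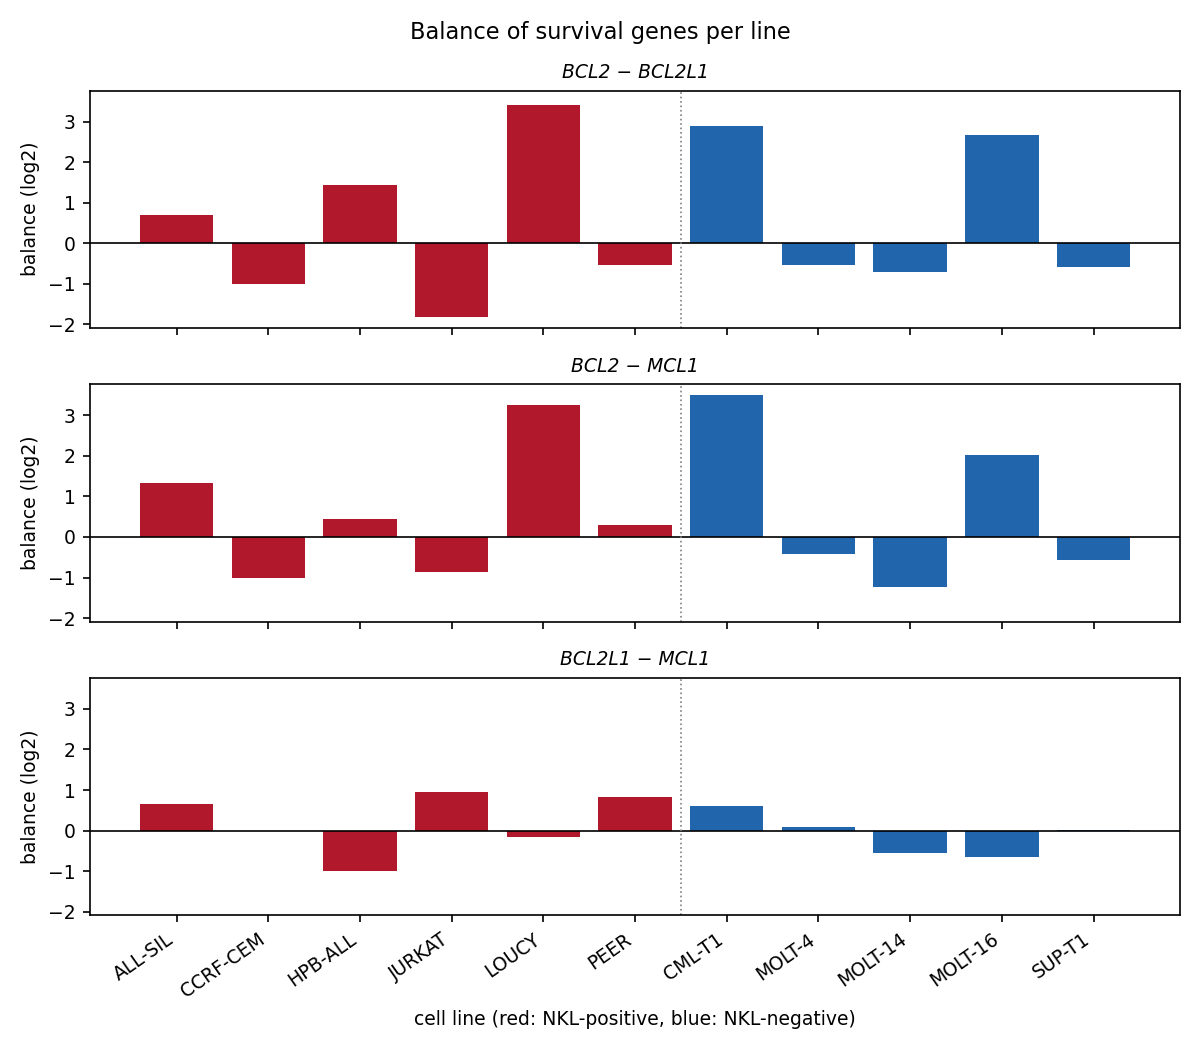
Balance of BCL2 against BCL2L1, BCL2 against MCL1 and BCL2L1 against MCL1 (y-axis, log2 units, difference of 2 deviations from the median of the gene) in each of the 11 lines (x-axis), NKL-positive lines in red and NKL-negative lines in blue. LOUCY, CML-T1 and MOLT-16 reach 2.02 to 3.50 in the upper 2 panels, and all lines lie between −1.0 and 0.96 in the lowest panel.

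The genes were also read from all their probe sets, which did not always run together. The correlation with the brightest probe set over the 11 lines (Pearson r) was 0.60 to 0.85 for the 3 further probe sets of BCL2L1, 0.94 for the second one of PMAIP1, and 0.94 and 0.96 for 2 of the 6 further ones of BCL2L11, with 0.19 to 0.71 for its other 4. Of the further BCL2 probe sets, the third by mean had r = 0.90, with CML-T1 at 7.07 and LOUCY at 6.76 again highest, and the fourth had r = 0.53. The second one by mean ran against the brightest one (r = −0.39), with 3.48 to 4.39 in the 3 lines without poly-A signal and 5.31 to 5.97 in the remaining 8. The further probe sets of MCL1 had r between −0.02 and 0.37 with the brightest one. Of these, 1 differed by 0.93 (SE 0.37, adjusted p = 0.981 from limma), the probe set with the smallest p of the 30, with a mean of 6.21 in NKL-positive lines against 5.28 in NKL-negative lines. Another MCL1 probe set, with a suffix that marks possible cross-hybridization, differed by 0.69 (SE 0.35, adjusted p = 0.981 from limma), with 7.39 in MOLT-4 and 9.51 in LOUCY at its ends. All these correlations describe 11 arrays that share their normalization.

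The probe sets also differed in how they followed the poly-A controls. In 3 of the 30 probe sets, 2 of MCL1 and 1 of BAX, HPB-ALL, CML-T1 and MOLT-16 lay above all other lines, and in 2, 1 of BCL2 and 1 of BCL2L2, below them, where 4.57% and 7.81% of all probe sets did so. The MCL1 probe sets were at 6.07 to 6.92 and 6.01 to 6.88 in these lines, against 3.49 to 5.44 and 3.83 to 5.47 in the lines with poly-A signal. The second BAX probe set was at 7.04 to 7.79 against 4.15 to 6.58. The brightest probe sets of the 10 genes overlapped between these 2 sets of lines, with BCL2 at 7.93 to 10.85 against 5.92 to 10.25. Over all 30 probe sets, 23 were higher and 7 lower in the NKL-positive lines, while 49.8% of all genes were higher at their brightest probe set. Probe sets of the same gene are not independent, so the 23 are not separate results. Of the 30, 0 passed the test of limma, where 0.00916% of all probe sets did.

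**Figure D4:**
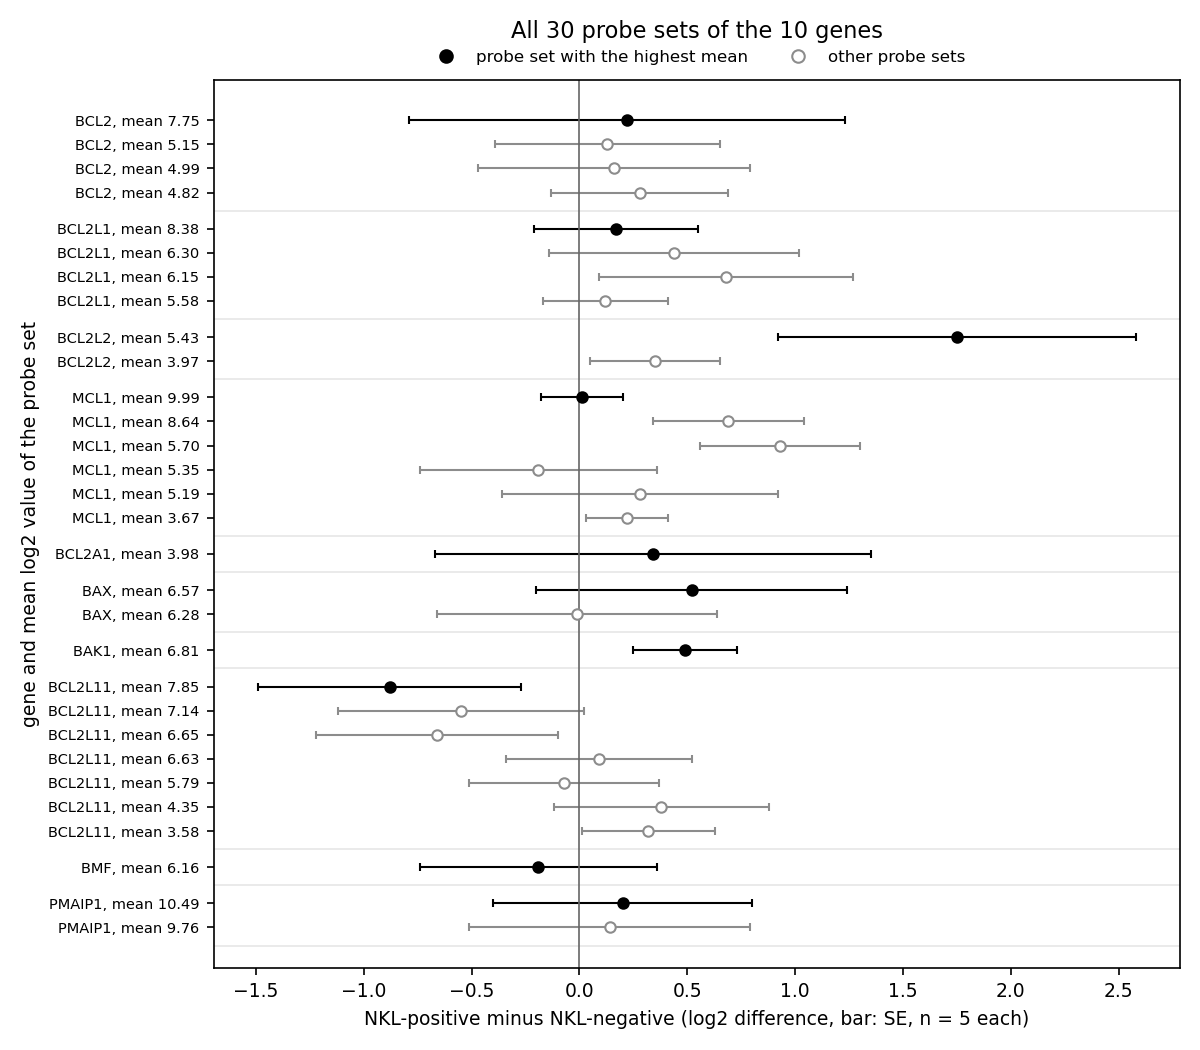
Difference between NKL-positive and NKL-negative lines (x-axis, log2, with SE bars, n = 5 each) for the 30 probe sets of the 10 genes (y-axis, labelled with the mean log2 value), filled points for the probe set that stands for the gene. All 4 probe sets of BCL2, each by less than its SE, and all 4 of BCL2L1 lie above 0, while those of BCL2L11 run from −0.88 to 0.38.

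Members that ran together over the lines were looked for with Pearson's r and Spearman's rho over the 11 lines, as a description with arrays that share their normalization. BCL2A1 was left out because 6 of its values have no order, which leaves 36 pairs of 9 genes. The highest values were found for BMF with PMAIP1 (r = 0.69, rho = 0.55), BCL2 with PMAIP1 (r = 0.67, rho = 0.65) and MCL1 with BMF (r = 0.66, rho = 0.59). In the 8 lines with poly-A signal r was 0.61, 0.68 and 0.84 for these pairs. The lowest value was that of BCL2L2 with BMF (r = −0.40, rho = −0.39, and r = −0.38 in the 8 lines). Genes with a range of at least 2 log2 units over the lines were compared, 7179 for BCL2 and 7180 for BCL2L1 and MCL1. Those most like BCL2 were INPP4B, a lipid phosphatase (r = 0.91, rho = 0.81), PRF1, which encodes perforin (r = 0.90, rho = 0.74), and ZNF480 (r = 0.90, rho = 0.89). These are the highest values of all genes compared, and how high they would be without a link was not tested. The second BCL2 probe set by mean ran against the one used here (r = −0.39). Most like BCL2L1 were LRFN3 (r = 0.86, rho = 0.76), ZBED3 (r = 0.84, rho = 0.90) and the receptor tyrosine kinase gene RET (r = 0.84, rho = 0.88). Most like MCL1 were CTTN, which encodes cortactin (r = 0.88, rho = 0.80), SHB (r = 0.87, rho = 0.84) and CARD6 (r = 0.86, rho = 0.75). The MCL1 probe set used varied by only 0.66, and the other MCL1 probe sets had r between −0.02 and 0.37 with it. Its correlations, also that with BMF, may therefore not describe the MCL1 transcript.

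Other genes of the mitochondrial pathway were read from 5 lists with 70 genes, of which 63 were measured by a probe set with a single symbol. Of the 63 genes 0 passed the test of limma, 4 had an unadjusted p under 0.05, against 5.26% of all genes, 32 were higher and 31 lower, and the median difference was 0.02. Of 15 relatives, cochaperones and turnover factors, 9 were higher and 6 lower. HUWE1, a ubiquitin ligase for MCL1, was at 13.13 in ALL-SIL, 13.38 in CCRF-CEM, 13.63 in HPB-ALL, 12.82 in LOUCY and 13.36 in PEER, against 13.79 in CML-T1, 13.91 in MOLT-4, 13.87 in MOLT-14, 13.79 in MOLT-16 and 13.93 in SUP-T1. The 5 lines of each group were apart for HUWE1 alone among the 63 genes, where 0.905% of all genes show this. The difference of −0.59 (SE 0.18) had an adjusted p of 0.920 from limma. JURKAT, which is NKL-positive but was not compared, was at 13.78. This lies above the highest compared NKL-positive line at 13.63 and next to the lowest NKL-negative lines at 13.79. FBXW7, which also marks MCL1 for destruction, differed by −0.44 but by 0.33 without PEER and −0.10 without CML-T1. The cochaperones BAG3 and BAG1 differed by 1.03 and 0.79, and BAG3 by 0.58 without SUP-T1.

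Of 10 further BH3-only genes and effector relatives, 4 were higher and 6 lower. BNIP3, a BH3-only gene of mitophagy and hypoxia, averaged 4.77 ± 3.91 in NKL-positive lines against 8.32 ± 3.09 in NKL-negative lines (SD, n = 5 each, difference −3.54, SE 1.94, adjusted p = 0.981 from limma), and HRK differed by −1.01, BIK by 0.41 and BOK by 0.39. With 1 line left out, HRK differed by −0.30 without CML-T1, BIK by −0.04 without PEER, 1.20 without HPB-ALL and 0.14 without SUP-T1, and BOK by 0.14 without MOLT-16, 0.25 without LOUCY and 0.62 without HPB-ALL. BOK was near or below the lower quartile in HPB-ALL with 3.42, CML-T1 with 3.45 and MOLT-16 with 2.92. So was HRK in HPB-ALL with 3.20 and MOLT-16 with 3.35. The differences of BOK and HRK thus rest in part on values at background. Of 10 genes of the apoptosome and caspases, 4 were higher and 6 lower, with PARP1, a substrate of caspases, at 0.69, CASP10 at 0.20, the scaffold APAF1 at −0.35 and CASP2 at −0.27. With 1 line left out, CASP10 ranged from −0.03 without LOUCY to 0.52 without HPB-ALL, APAF1 from −0.64 without HPB-ALL to −0.10 without LOUCY, and CASP2 from −0.39 to −0.15 without MOLT-4. Of 10 release factors and IAP genes, 5 were higher and 5 lower, with the protease HTRA2 at 0.52, BIRC5 (survivin) at 0.29, NAIP at −0.39 and the nuclease ENDOG at −0.31. BIRC5 was at 0.05 without ALL-SIL, NAIP at −0.60 without HPB-ALL and −0.26 without LOUCY, and ENDOG at −0.47 without CCRF-CEM and −0.20 without MOLT-4. Of 18 transcriptional regulators of members, 10 were higher and 8 lower. TSC22D3 (GILZ), a glucocorticoid-induced gene, differed by 2.49 (SE 1.11) and RUNX3 by 2.40 (SE 0.74), with an adjusted p of 0.981 and 0.927 from limma, MYC by −1.94 and ATF4 by −0.63. Without LOUCY the difference was 1.60 for TSC22D3 and −0.32 for MYC, and without CML-T1 it was −0.37 for ATF4. JURKAT had the lowest value of all lines for RUNX3 with 5.30. NFKB1, named after its value was seen because it completes the 4 genes at an unadjusted p under 0.05 from limma, differed by 1.49. The medians of the 5 lists, in this order, were 0.04, −0.11, −0.03, 0.04 and 0.20, against 0 for all genes.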

How the data were processed

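Expression profiling used HG U133 Plus 2.0 arrays, 1 for each of 11 T-ALL cell lines. The authors processed the arrays by RMA (R packages affy and limma, versions not given in the sources used here), with background correction, quantile normalization and 1 log2 value per probe set, and the deposited log2 values were used without further scaling. The paper's methods also name ratios to the sample mean, which these values, 2.24 to 14.57, do not show. RMA gives the arrays a common distribution, so that a change shared by all genes cannot be seen. Tests did not include the 62 control probe sets. By the platform annotation 41091 probe sets have 1 gene symbol, 1801 have several and 11721 have none. The comparison took 5 NKL-positive and 5 NKL-negative lines, as the study did, with limma 3.58.1 in R 4.3.3, empirical Bayes moderation, no covariates and no filter, and Benjamini-Hochberg adjustment over 54613 probe sets at a threshold of 0.05. Tables and figures used Python 3.11.15. The p-values measure the spread between cell lines, and their number limits the precision. The procedure was tested on simulated data. The genes, the lists of pathway genes and the tests were chosen with earlier results of these data known. The named genes were the 10 members, from each list the 2 genes furthest up and the 2 furthest down by mean difference, and the 3 genes most like BCL2, BCL2L1 and MCL1 by Pearson's r among genes with a range of at least 2. Alternatives were all 11 lines, each line left out, a term for or omission of the lines without poly-A signal (poly-A controls averaging below the array median), median centring, quantile normalization, only probe sets above the median, a floor at the lower quartile of each array, array weights, a trend of variance with intensity and averaging a gene over its probe sets. Promoter windows came from RefSeq (GRCh38.p14).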

Additional observations from a re-analysis of the deposited data

Results flagged for a closer look

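Of the 20 sets of values tested for a line far from the rest, 10 genes in each group, 2 were singled out. Chance was taken to give about 1 in 20, a rate that was not checked over all genes or for values near background. The 2 sets are therefore given as a description and were not judged against that rate. BCL2L2 was at 8.16 in MOLT-14, where the other 4 NKL-negative lines lay between 3.26 and 4.28, all below the median of their arrays. BCL2A1 was at 8.11 in MOLT-16, where the other 4 NKL-negative lines lay between 2.72 and 2.97, all below the lower quartile of their arrays.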

How the results depend on the processing

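No paired analysis was possible because the labels number no replicates and every line belongs to a single group. Under all alternatives, 0 of the 10 genes and 0 of the 63 pathway genes passed the test of limma, the smallest adjusted p of a member being 0.238. Over all probe sets, 5 were called in the comparison of 10 lines, 0 with all 11 lines, 3 with the floor, 3 with the term for lines without poly-A signal, 3 with the lines with poly-A signal alone, and 3 to 13 with 1 line left out (13 without LOUCY, 9 without MOLT-14, and 3 without CML-T1, HPB-ALL or PEER). Directions turned for BCL2 with all 11 lines (−0.06), for MCL1 with array weights (−0.05), quantile normalization (−0.03) and the lines with poly-A signal alone (−0.10), and for BCL2A1 with the floor (−0.11). With 1 line left out, the difference ran from −0.34 (without LOUCY) to 0.99 (without CML-T1) for BCL2, from −0.04 to 0.40 for BCL2L1, from −0.07 to 0.09 for MCL1, from −0.14 (without SUP-T1) to 1.0 for BAX, from −1.29 (without ALL-SIL) to −0.49 (without HPB-ALL) for BCL2L11, from −0.53 to 0.16 (without PEER) for BMF and from −0.15 (without MOLT-14) to 0.59 for PMAIP1. With the mean over probe sets, the range over the lines was 2.71 in place of 5.23 for the balance of BCL2 against BCL2L1, 2.82 in place of 4.74 for BCL2 against MCL1 and 1.69 in place of 4.39 for BCL2L11 against BCL2. Alternatives to the balances chosen after the data were seen read 1 gene of a balance from its second probe set, which gave a range of 2.70 for BCL2 against BCL2L1 and 2.98 for BCL2 against MCL1 with BCL2 exchanged, and 2.98 in place of 1.96 for BCL2L1 against MCL1 with BCL2L1 exchanged. Also chosen after the data were seen were other definitions of standing out. With a gap of 1 log2 unit 22 values stood out high and 19 low, with a gap of 3 units 4 and 1, with the mean over probe sets 2 and 1, and in the lines with poly-A signal 3 stood out high. With values below the lower quartile set to it, 7 stood out high and 3 low, as in the main definition. BCL2A1 could not be examined with the probe sets above the median. The causes were not tested. Of a level near the lower quartile of an array, as for BCL2A1 in 6 lines, no order can be given.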

Other observations

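BNIP3 took 2 levels in these lines with none between. It was at 11.76 in CCRF-CEM, 9.73 in JURKAT, 9.30 in CML-T1, 9.80 in MOLT-4, 10.25 in MOLT-14 and 9.40 in MOLT-16, and at 2.85 in ALL-SIL, 2.96 in HPB-ALL, 3.21 in LOUCY, 3.08 in PEER and 2.83 in SUP-T1, below the lower quartile of the arrays. Lines of each NKL group and lines with and without poly-A signal occurred on both levels. HRK, a BH3-only gene known from neurons, was at 7.74 in CML-T1 and between 3.20 and 4.72 in the other lines. MYC, which encodes a transcription factor and was on the list of regulators, was at 3.38 in LOUCY and between 10.37 and 12.82 in the other lines.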
